A study of Arabidopsis thaliana with 6 samples.

Results

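The genes described here encode the proteins that let calcium into the plant cell, bind it and pass its signal on. They are the cyclic nucleotide-gated channels (CNGCs) and glutamate receptor-like channels (GLRs), calmodulins and other EF-hand proteins, and calcium-dependent protein kinases (CPKs). Calcineurin B-like sensors (CBLs) with their kinases (CIPKs), and proteins described as binding calmodulin or as like such proteins, belong to them too. They were found by phrases in the gene descriptions of the authors' deposited table. The phrases found 65 genes of 5311 listed measurements, all 65 of them typed as protein-coding. All descriptions name a protein of these families, but the channels and 1 sodium/calcium exchanger are neither sensors nor kinases.

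The plants were whole Arabidopsis thaliana seedlings (Ler accession) from MS plates, harvested 7 days after germination. Wild type (WT) and a dme mutant, labelled dme/-, have 3 libraries each. DME is an enzyme of active DNA demethylation, a glycosylase that cuts methylated cytosine out of DNA. The dme allele, the number of plants per library and the hour of harvest are not stated by the labels. They do not say either whether replicate libraries came from separate cultures, and p-values then cover the spread of these libraries alone, possibly a technical one. In whole seedlings, more cells of a type and more RNA per cell cannot be told apart.

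Calcium acts in plant cells as a messenger. Touch, wounding, microbes, salt and cold open channels, and the resulting rise in cytosolic calcium is read by proteins with EF hands, helix-loop-helix folds that hold a calcium ion. Calmodulins and calmodulin-like proteins (CMLs) have no enzyme activity and act by binding partners, CPKs carry EF hands and a kinase domain in the same protein, and CBLs recruit and activate CIPKs. Pumps and exchangers then remove the calcium again.

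The authors' deposited table holds a gene only if it changed at least 2-fold with an adjusted p under 0.05, and gives a mean normalized count over the 6 libraries, a fold change read as dme over WT from the table's name, and the adjusted p. It gives no value per library, so neither the replicates' values nor their overlap can be shown. From mean and fold, the level in each genotype can be computed, called the implied mean here, in normalized counts that are not per length and so are not compared between genes. In place of a standard error, an upper bound on it is given, the largest that the adjusted p allows in a Wald test. Since every listed gene passed the thresholds, a member's presence is part of how it was chosen. DME itself, the mutated gene, was lower in dme with a log2 ratio of -1.55 per the authors' deposited table (adjusted p = 4.88e-17), from an implied 3249 to 1107 normalized counts.

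Of the 65 members, 59 were higher in dme and 6 lower. The share of higher genes was 90.8%, where 72.8% of all listed measurements were higher and 27.2% lower. The 6 lower genes were the glutamate receptors GLR3.3 and GLR3.4, the calmodulin-like genes CML41 and CML47, and the kinase genes CIPK16 and CIPK20. At least a 4-fold rise was reached by 37 members (56.9%), where 38.3% of all listed measurements reached it, and at least a 4-fold fall by 2, where 6.46% did. Leaving out genes without reads in 1 genotype, the 56 higher members had a median log2 ratio of 2.29 and all higher listed genes one of 1.98, from the authors' deposited table. The 6 lower members had a median of -1.74 and all lower listed genes one of -1.38. An adjusted p under 0.01 was reached by 59 of the 65 members, or 90.8%, near the 90.5% of all listed measurements. These shares describe the table and carry no test, since the members were known to be listed and genes are not independent.

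**Figure D1:**
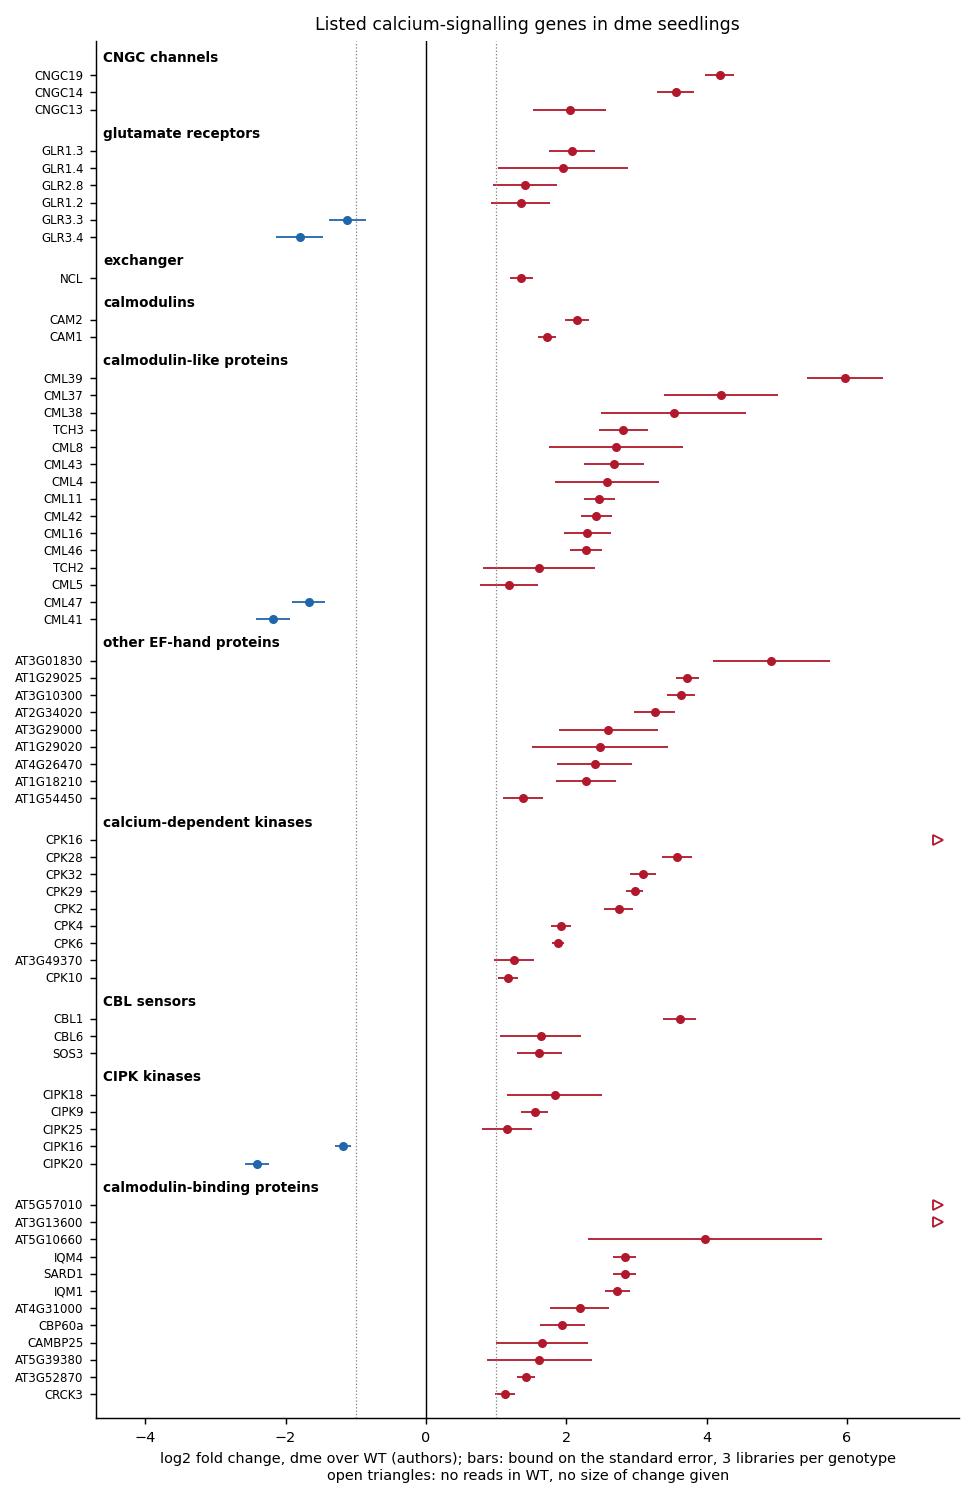
Log2 fold change (dme over WT, authors' deposited table) of each of the 65 genes, by role, with bars of plus or minus the bound on the standard error. Red points are higher and blue points lower in dme, dotted lines mark the 2-fold threshold of the table, and open triangles mark the 3 genes with no reads in WT, which have no size of change. The 6 blue points are GLR3.3, GLR3.4, CML41, CML47, CIPK16 and CIPK20.

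**Figure D2:**
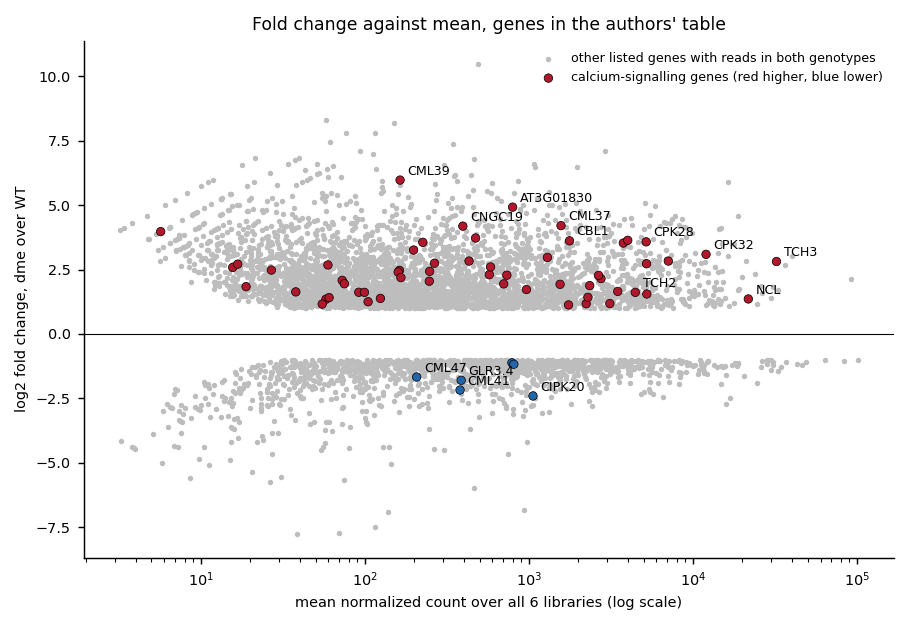
Mean normalized count over the 6 libraries (log axis) against log2 fold change, with the calcium-signalling genes in red (higher) and blue (lower) over all other listed genes in grey. Genes without reads in 1 genotype are left out. The calcium-signalling genes run from AT5G10660 at 5.69 to TCH3 at 32345 normalized counts.

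Of the channel genes, all 3 listed CNGC genes were higher, while 4 listed GLR genes were higher and 2 lower. CNGC19, a channel known from calcium entry during herbivore attack, rose from an implied 41.3 to 750 normalized counts, a log2 ratio of 4.18 per the authors' deposited table (standard error at most 0.211, adjusted p = 1.1e-87). CNGC14, which carries auxin-triggered calcium entry in root cells, rose from an implied 35.3 to 416 normalized counts, by 3.56 log2 units in the authors' deposited table (standard error at most 0.267, adjusted p = 2.04e-40). For CNGC13 the rise was smaller and less certain, 2.05 log2 units in the authors' deposited table, with a standard error of at most 0.520 (adjusted p = 8.41e-05). Only 3 of the 20 CNGC genes of the annotation were listed (15.0%), where 18.5% of all annotated protein-coding genes were (this background counts untested genes too).

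The listed GLRs went in both directions. Of the first clade, GLR1.2, GLR1.3 and GLR1.4 were all higher, by 1.35, 2.08 and 1.95 log2 units in the authors' deposited table. Their implied means were low, between 27.9 and 32.7 normalized counts in WT and between 83.1 and 119 in dme, and the bound on the standard error of GLR1.4 reached 0.923 (adjusted p = 0.0347 in the authors' deposited table). GLR2.8 was higher by 1.41 log2 units in the authors' deposited table (adjusted p = 0.0022). GLR3.3, a channel of the third clade that wound signals need to travel between leaves, went the other way, from an implied 1080 to 497 normalized counts (log2 ratio of -1.12 per the authors' deposited table, standard error at most 0.264, adjusted p = 2.23e-05). GLR3.4, a relative of GLR3.3, was 3.48-fold lower, from an implied 601 to 172 normalized counts (adjusted p = 1.04e-07 in the authors' deposited table). GLR3.3 lies nearest to the 2-fold threshold of all members, and genes just outside it are not in the table. In total 4 of 20 GLR genes were higher (20.0%), 2 lower and 14 not listed, where 13.7% of all annotated protein-coding genes were listed as higher and 4.84% as lower. GLR1.2 and GLR1.3 are neighbours and each other's best protein match, and whether their reads were mixed was not tested.

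NCL, a membrane exchanger of sodium and calcium with EF hands of its own, rose 2.56-fold, from an implied 12226 to 31337 normalized counts (log2 ratio of 1.36 per the authors' deposited table, standard error at most 0.168, adjusted p = 5.38e-16).

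Among the sensors, 2 of 7 calmodulin genes were listed and both were higher (28.6%), where 13.7% of all annotated protein-coding genes were listed as higher. CAM2 rose from an implied 1012 to 4493 normalized counts (log2 ratio of 2.15 per the authors' deposited table, standard error at most 0.168, adjusted p = 2.6e-37). CAM1, also named TCH1 as a gene induced by touch, rose from an implied 449 to 1484 (log2 ratio of 1.72 per the authors' deposited table, standard error at most 0.134, adjusted p = 7.66e-38). Calmodulin genes encode near-identical proteins, and whether reads were shared with copies that were not listed was not tested.

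Of 15 genes with a CML name in the authors' deposited table, 13 were higher and 2 lower. A rise of at least 4-fold was reached by 11 (73.3%), where 38.3% of all listed measurements reached it. Only 13 of 50 CML names were matched in the annotation, so no share of the family is given. CML39, which acts in early seedling growth, had the largest log2 fold change of the members with reads in both genotypes, 5.97 in the authors' deposited table (standard error at most 0.540, adjusted p = 2.06e-28). Its implied WT mean was 5.14 normalized counts against 323 in dme, so the size of that fold rests on few WT reads. CML38, the neighbour and best protein match of CML39, rose from an implied 601 to 6935 normalized counts, but with a standard error of up to 1.03 on a log2 fold change of 3.53 (adjusted p = 0.000653 in the authors' deposited table).

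CML37 and CML42, both known from defence against chewing insects, rose by 4.20 and 2.43 log2 units in the authors' deposited table. The standard error was at most 0.222 for CML42 (adjusted p = 6.36e-28 in the authors' deposited table) and at most 0.814 for CML37 (adjusted p = 2.39e-07). CML43, the best match of CML42, rose by 2.68 log2 units in the authors' deposited table (adjusted p = 3.21e-10). CML11, CML46 and CML16 rose 5.53-fold, 4.86-fold and 4.92-fold in the authors' deposited table, each with an adjusted p of 8.15e-12 or less. TCH3, a touch-induced gene also named CML12, rose 7.02-fold, from an implied 8066 to 56624 normalized counts (adjusted p = 8.25e-16 in the authors' deposited table). TCH2, another touch-induced gene also named CML24, rose 3.06-fold with the largest adjusted p of all members, 0.0427 in the authors' deposited table. CML4, CML8 and CML5 complete the higher genes, at 2.58, 2.71 and 1.18 log2 units in the authors' deposited table. CML4 and CML8 had implied WT means of 4.48 and 4.45 normalized counts, so their folds also rest on few reads.

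The lower CML genes were CML41, which acts at plasmodesmata in immunity, and CML47. CML41 went from an implied 623 to 138 normalized counts (log2 ratio of -2.18 per the authors' deposited table, standard error at most 0.241, adjusted p = 1.57e-19). CML47 went from an implied 315 to 98.8 normalized counts (log2 ratio of -1.67 per the authors' deposited table, standard error at most 0.230, adjusted p = 3.63e-13). The best protein matches of both were members that moved the opposite way, CML38 for CML41 and CML46 for CML47. In 25 members the best match given in the authors' deposited table was itself listed. In 23 of them both went in the same direction, higher in each case. Pairs that are each other's best match enter this count once per member. With 90.8% of the members higher, such agreement says little about relatives, and no lower member had a listed match that was lower too.

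Another 9 EF-hand genes carry no family name in the table, so CMLs may be among them, and all 9 were higher. AT1G29025 had the smallest adjusted p of them, 1.03e-111 in the authors' deposited table, and rose from an implied 66.6 to 880 normalized counts (log2 fold change of 3.72, standard error at most 0.166). AT3G10300 rose 12.4-fold, from an implied 597 to 7418 normalized counts (adjusted p = 8.96e-71 in the authors' deposited table). AT3G01830, whose best match is CML38, showed the largest rise of this group, 4.92 log2 units in the authors' deposited table, with a standard error of up to 0.828 (adjusted p = 2.73e-09). AT2G34020 rose by 3.26 and AT1G18210 by 2.27 log2 units in the authors' deposited table. The remaining 4, AT1G54450, AT4G26470, AT3G29000 and AT1G29020, rose as well, AT3G29000 the most at 6.06-fold and AT1G54450 the least at 1.38 log2 units in the authors' deposited table.

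All 9 calcium-dependent kinase genes found by the phrases were higher, and for the 8 with reads in both genotypes the standard error was at most 0.287. CPK28, which limits immune signalling by promoting turnover of the kinase BIK1, rose from an implied 804 to 9580 normalized counts (log2 ratio of 3.58 per the authors' deposited table, standard error at most 0.217, adjusted p = 4.88e-61). CPK32 rose 8.51-fold, from an implied 2530 to 21527 normalized counts (standard error of the log2 value at most 0.181, adjusted p = 2.39e-65 in the authors' deposited table). CPK29 had the smallest adjusted p of all members, 5.51e-125 in the authors' deposited table, with a rise from an implied 294 to 2302 normalized counts (log2 fold change of 2.97, standard error at most 0.125).

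CPK6 and CPK4, kinases of abscisic acid signalling, rose by 1.88 and 1.93 log2 units in the authors' deposited table. The bound on the standard error of CPK6, 0.0854, was the smallest of all members, and that of CPK4 was 0.145. CPK2 rose from an implied 69.0 to 463 normalized counts (adjusted p = 5.53e-40 in the authors' deposited table). CPK10 and AT3G49370, described as a CDPK family protein, rose least, by 1.17 and 1.25 log2 units in the authors' deposited table. CPK16, the best match of CPK28, had no reads in WT by the pattern of its fold and a mean of only 4.85 normalized counts (adjusted p = 0.00204 in the authors' deposited table), so no fold is given. CPK1, the best match of CPK2, lacks the phrases in its description and was higher too, by 2.19 log2 units in the authors' deposited table (adjusted p = 1.68e-78). With CPK1 and without AT3G49370, which has no CPK name, 9 of the 34 CPK genes of the annotation were higher (26.5%), 0 lower and 25 not listed. The shares of all annotated protein-coding genes were the same 13.7% and 4.84%.

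**Figure D3:**
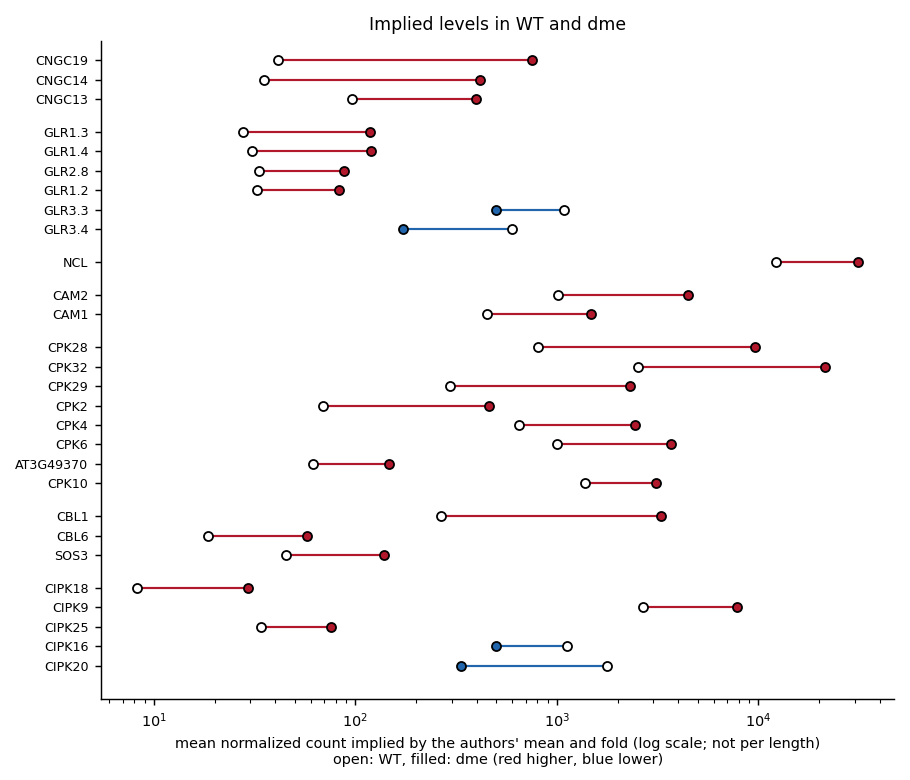
Mean normalized counts in WT (open circles) and dme (filled circles) implied by the authors' mean and fold, on a log axis. Channels, the exchanger, calmodulins, CBL sensors and kinases with reads in both genotypes are shown. Levels are not per length, so only the circles on 1 line can be compared. CPK28, CPK32, CBL1 and CNGC19 have long red lines to the right, while GLR3.3, GLR3.4, CIPK16 and CIPK20 run to the left in blue.

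CBL sensors and CIPK kinases work in pairs. All 3 listed CBL genes were higher, and of the 5 CIPK genes found by the phrases 3 were higher and 2 lower. Of all listed measurements 72.8% were higher, so counts this small do not set the 2 families apart. CBL1, which recruits CIPKs to the plasma membrane, rose from an implied 267 to 3271 normalized counts (log2 ratio of 3.61 per the authors' deposited table, standard error at most 0.234, adjusted p = 5.41e-54). SOS3, also named CBL4, the calcium sensor of the salt tolerance pathway, rose 3.07-fold (adjusted p = 4.97e-07 in the authors' deposited table). CBL6 rose by 1.63 log2 units (adjusted p = 0.00473 in the authors' deposited table). The other 7 of 10 CBL genes were not listed, so 30.0% were listed as higher, against 13.7% of all annotated protein-coding genes.

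Of the CIPKs, CIPK9, a kinase of potassium nutrition, rose from an implied 2667 to 7812 normalized counts (log2 ratio of 1.55 per the authors' deposited table, standard error at most 0.191, adjusted p = 5e-16). CIPK18 and CIPK25 rose by 1.84 and 1.16 log2 units in the authors' deposited table, from implied WT means of 8.26 and 34.0 normalized counts. CIPK20 showed the largest fall of all members, 5.31-fold, from an implied 1783 to 336 normalized counts (log2 ratio of -2.41 per the authors' deposited table, standard error at most 0.174, adjusted p = 1.1e-43). CIPK16, known for a role in salt tolerance, went from an implied 1123 to 496 normalized counts (log2 ratio of -1.18 per the authors' deposited table, standard error at most 0.114, adjusted p = 6e-25). CIPK11 lacks the phrases in its description and was 2.46-fold higher in the authors' deposited table (adjusted p = 0.00147). With it 4 of 26 CIPK genes were higher (15.4%), 2 lower and 20 not listed, a share of higher genes near the 13.7% of all annotated protein-coding genes.

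All 12 listed genes grouped by a description of calmodulin binding were higher, where 72.8% of all listed measurements were. The descriptions of SARD1 and CBP60a say only that they are like calmodulin-binding proteins. IQM4 and IQM1, each other's best match in a family with the IQ motif, rose by 2.83 and 2.73 log2 units in the authors' deposited table, with standard errors of at most 0.164 and 0.181. SARD1, a transcription factor that activates salicylic acid synthesis, rose from an implied 107 to 757 normalized counts (adjusted p = 8.94e-66 in the authors' deposited table). CBP60a, a relative of SARD1 that restrains immunity, rose from an implied 290 to 1115 normalized counts (log2 ratio of 1.94 per the authors' deposited table, standard error at most 0.316, adjusted p = 8.26e-10). AT3G52870 rose by 1.42 and CRCK3, a receptor-like cytoplasmic kinase, by 1.13 log2 units in the authors' deposited table, the latter the smallest rise among the members.

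AT5G57010 and AT3G13600 had no reads in WT by the pattern of their folds, with means of 207 and 25.7 normalized counts (adjusted p = 8.6e-19 and 1.47e-08 in the authors' deposited table). AT5G10660, at a mean of 5.69 normalized counts, had the largest bound on the standard error of the members with reads in both genotypes. It was 1.67 on a log2 ratio of 3.97 per the authors' deposited table. CAMBP25, AT4G31000 and AT5G39380 rose by 1.65, 2.19 and 1.61 log2 units in the authors' deposited table. Their adjusted p-values ran from 1.3e-07 for AT4G31000 to 0.0308 for AT5G39380 in the authors' deposited table.

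The bound on the standard error varied widely between members of similar abundance. As an upper limit taken from the adjusted p, it need not follow the error itself. Of 23 members with a mean of at least 1000 normalized counts, 7 had a bound on the standard error above 0.295, which 10.1% of all 1223 such listed genes with reads in both genotypes exceeded. They were CML38, CML37, TCH2, CAMBP25, AT1G18210, CML5 and TCH3, with bounds from 0.349 (TCH3) to 1.03 (CML38). No CPK, CBL or CIPK gene was among them, but of the CBLs only CBL1 and of the CIPKs only CIPK9 and CIPK20 reached that mean. Channel genes could not be among them, since their means were at most 396 (CNGC) and 788 (GLR). Values per library are needed to say which libraries differed, and the table gives none.

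**Figure D4:**
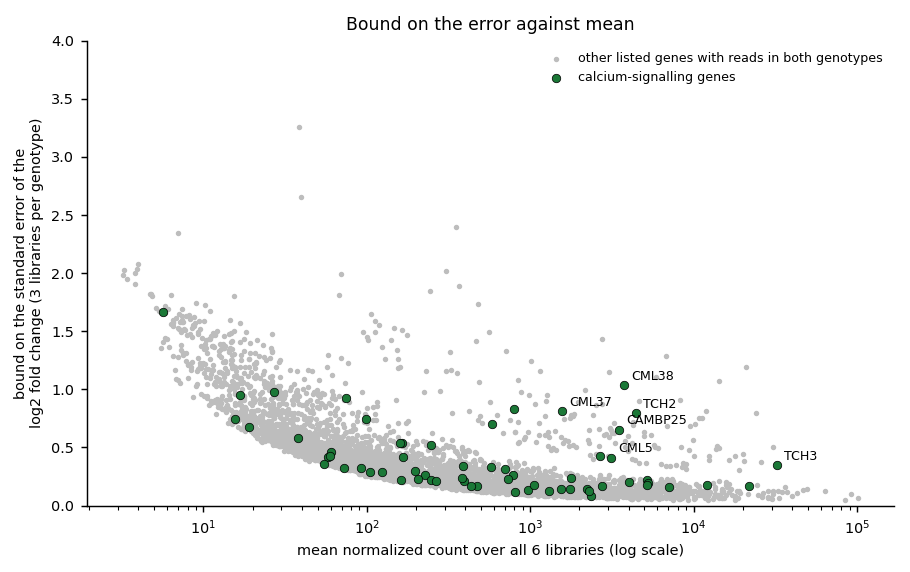
Mean normalized count over the 6 libraries (log axis) against the bound on the standard error of the log2 fold change, for the calcium-signalling genes (green) and all other listed genes (grey) with reads in both genotypes. CML38, TCH2, CML37, CAMBP25, CML5 and TCH3, all with a mean above 1000, lie above most grey points of the same mean.

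Other genes of calcium handling, found by symbol and not by the phrases, were listed as higher, and 0 genes of the lists below as lower. The shares given are read against the 13.7% of all annotated protein-coding genes that were listed as higher. Of 20 calcium pumps and exchangers, 8 were higher (40.0%). ACA1, a calcium pump of the autoinhibited class, rose from an implied 1629 to 28135 normalized counts (log2 ratio of 4.11 per the authors' deposited table, standard error at most 0.126, adjusted p = 2.58e-232). ECA4 and ECA2, pumps of internal membranes, rose 2.58-fold and 2.36-fold (adjusted p = 2.25e-89 and 1.78e-33 in the authors' deposited table). Among annexins, calcium-dependent membrane-binding proteins, 4 of the 7 matched genes were higher (57.1%). ANN2, ANN1 and ANN3 stood at 2.78, 2.21 and 1.06 log2 units in the authors' deposited table.

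NADPH oxidases carry EF hands and turn calcium signals into reactive oxygen species, and 5 of the 7 matched genes were higher. Since 3 of the 10 names on that list were not matched, no share is given. RBOHD, the oxidase of the immune oxidative burst, rose from an implied 1521 to 36400 normalized counts (log2 ratio of 4.58 per the authors' deposited table, standard error at most 0.127, adjusted p = 3.71e-286). RBOHF rose by 1.81 and RBOHB by 3.79 log2 units in the authors' deposited table. Of 33 IQD genes, which encode calmodulin-binding scaffold proteins, 6 were higher (18.2%), not far from that background, by adjusted p led by IQD19 at 1.39, IQD23 at 1.13 and IQD15 at 2.43 log2 units in the authors' deposited table. The calmodulin-binding transcription factor genes CAMTA3 and CBP60G were higher by 1.27 and 1.83 log2 units in the authors' deposited table, but only 3 of 6 CAMTA and 3 of 8 CBP60 names, SARD1 and CBP60a among them, were matched. Of the 3 matched calreticulin and calnexin genes, of 5 names, and the 4 matched genes of other calcium channels, of 8 names, 0 were listed.

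**Figure D5:**
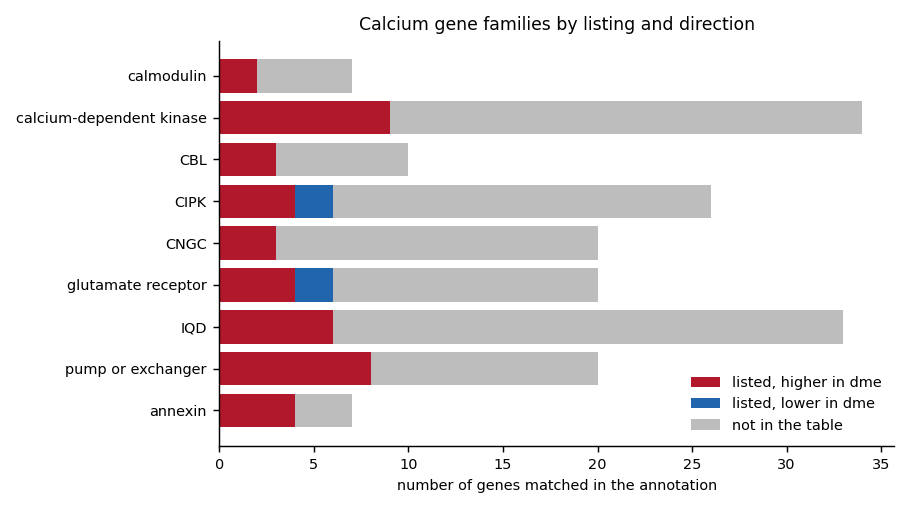
Number of genes of each family matched in the annotation, split into listed and higher in dme (red), listed and lower (blue) and not in the table (grey), for lists of which at least 80% of the names were matched. Only CIPKs and glutamate receptors have blue segments, with 2 genes each.

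The same phrases were also searched in the product names of the annotation. They found 224 protein-coding genes, of which 67 (29.9%) were listed, 61 as higher (27.2%) and 6 as lower (2.68%). All 65 members were among the 67. Of all annotated protein-coding genes, 18.5% were listed, and as some of either set may not have been tested, these shares are given without a test.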

How the data were processed

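Whole seedlings of 2 genotypes were profiled by RNA-seq, with 3 libraries each. Trimmomatic 0.36, HISAT2 2.1.0, StringTie 2.1.3 and, as genome build, TAIR10 are named in the submitters' processing notes. How reads were counted, with or without strand, and how the comparison was made is not given in the sources read here. Reads from overlapping, antisense or near-identical genes may therefore be mixed. The deposited table gives a mean normalized count (a signal whose scaling is not stated), a log2 fold change, a linear fold and an adjusted p-value per gene, all computed by the authors and named per the file headers. It has 0 columns of values per library, so the planned count model was replaced by the authors' values. The depth of each library is unknown.

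Of 5322 rows, 11 repeat the name and values of another and were counted once, leaving 5311 measurements. Rows were members if the description held any of 9 phrases on EF hands, calmodulin, calcium-dependent kinases, CBL and CIPK proteins, cyclic nucleotide-gated channels or glutamate receptors. The level in each genotype was computed from the mean and the fold, taking the libraries as equally weighted and the folds as unshrunken. Where the log2 mean minus the absolute log2 fold change lay under -3, 1 genotype was taken to have no reads and no fold is given. The bound on a standard error divides the absolute log2 value by the normal quantile of the adjusted p, which assumes a two-sided Wald test. The formulas for the implied means and for the bound were run on simulated data, which checks their arithmetic only. The cut at -3 and the assumptions of unshrunken folds and of a Wald test were not tested. Families were matched by symbol in the annotation of assembly TAIR10.1, used for names and gene order only, and a match was kept only if its product name or synonyms held a word of the family.

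Members and lists were chosen with earlier results of these data known. All members were named in groups of 6 or fewer, and in larger groups the 5 with the smallest adjusted p per direction and the largest rise and fall. Up to 3 genes with the smallest adjusted p were named per list outside the rule. Other genes were named after their values were seen. Alternatives were an adjusted p under 0.01, a mean of at least 50, at least 4-fold, each repeated row counted, genes without reads left out, shifts of the log2 fold changes by -0.5 and 0.5, and named families only. No member row is repeated, so counting repeats could not move any member result. The main median already leaves out genes without reads, so that setting could not move it. Python 3.11.15, numpy 2.4.6, pandas 2.3.3, scipy 1.17.1 and matplotlib 3.10.9 were used.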

Additional observations from a re-analysis of the deposited data

How the results depend on the processing

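The share of higher members ran from 86.0% (named families only) to 94.9% (at least 4-fold) over all alternatives, and the median log2 fold change from 1.92 (shift by -0.5) to 2.74. At least a 4-fold change left 37 higher and 2 lower members with a median of 2.74, and named families only left 37 higher members, both fewer by construction. Of all listed measurements, 2035 were at least 4-fold higher and 343 at least 4-fold lower. The 94.9% is therefore not to be set against the 72.8% of all listed measurements that were higher. With the log2 fold changes shifted by 0.5 the median was 2.73, and 4 lower members stayed past 2-fold. All other counts stayed within 1.5 times. With shifts of -0.5 and 0.5, 89.1% and 93.7% of the members past 2-fold were higher, against 66.3% and 86.0% of all listed measurements. Genes that a shift would bring past the threshold are not in the table. No paired analysis was possible because the table holds no values per library, and for the same reason no replicate could be left out and no other scaling or filter on counts was run. Depth limits the folds of CML39, CML4, CML8, CIPK18, AT1G29020 and AT5G10660, whose implied WT means were under 10 normalized counts.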

Other observations

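Of the members, 4 pairs are direct neighbours among the protein-coding genes of the annotation, and both genes of each pair were higher. On chromosome 1 these are CML39 with CML38, at 5.97 and 3.53, and AT1G29020 with AT1G29025, at 2.48 and 3.72 log2 units in the authors' deposited table. On chromosome 5 they are TCH2 with CAM1, both first known as touch-induced genes, at 1.61 and 1.72, and GLR1.2 with GLR1.3, at 1.35 and 2.08 log2 units in the authors' deposited table. Across the 5 chromosomes, both genes were listed in 1147 of 27439 neighbouring pairs, and 73.8% of these went in the same direction. That share includes pairs with both genes lower, and the share with both higher was not computed. With 90.8% of the members higher, 4 pairs with both genes higher say little about neighbours.

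The longer annotation text of the authors' deposited table, which did not choose the members, was searched for 9 terms. It names the plasma membrane for 12 of the 65 members (18.5%) and for 6.97% of the 5211 listed measurements with such text. All 12 were higher, among them NCL, CBL1, CPK6, CPK28, CPK29, CPK32, TCH2, TCH3 and CML38. Response to mechanical stimulus is named for 3 listed genes, and CAM1 and TCH3 are among them. Abscisic acid is named for 3 members (4.62%, against 0.537% of the listed measurements with text) and salt stress for 2 (3.08%, against 1.32%). Root as the first site of expression named was found for 4 members (6.15%, against 3.44%). Texts that name root later were not counted, so these are not shares of genes expressed in root. Defense response is named less for the members, for 1 (1.54%, against 3.24%), and response to chitin and to cold for 0 members, against 0.518% and 0.614%. Wounding is named for CML38 alone of the members (1.54%, against 0.537%). The text is incomplete, most of these counts are of 3 genes or fewer, and the shares carry no test.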
